A study of Mus musculus with 12 samples.

Results

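The difference between *En1* hemizygous and wild-type (WT) mice that is shared by 2 mouse strains was measured in RNA of the substantia nigra pars compacta (SNpc). All 12 libraries of the series entered it, 6 from hemizygous (*En1*+/-) and 6 from WT mice, with strain as an additive term and no interaction, so that each gene got 1 genotype effect from both strains. The SNpc of each mouse was laser-microdissected at 1 week of age, and each library came from 1 mouse. The 4 groups were SwissOF1 WT, SwissOF1 *En1*+/-, C57Bl/6j WT and C57Bl/6j *En1*+/- (called OF1 and C57 below), with 3 mice in each, all labelled male. A LacZ insertion disrupts 1 *En1* copy in every cell of the hemizygous mice, and the C57 line was made by backcrossing the OF1 line, so each hemizygous group carries the same allele and the region linked to it. Of the 18017 genes tested, whose normalized counts averaged 10 or more over the 12 mice, 9814 (54.5%) had the same sign in both strains, 4452 of them higher (24.7% of all tested) and 5362 lower (29.8%) in the hemizygous mice. Fewer cells of a type and less RNA per cell cannot be told apart in such bulk samples.

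*En1* encodes Engrailed-1, a homeodomain transcription factor that binds DNA and also acts on translation, and that midbrain dopaminergic neurons need for their specification and survival. These neurons project to the striatum and are the cells lost in Parkinson's disease. The SNpc also holds GABAergic neurons, astrocytes, oligodendrocytes, microglia and the cells of its dense capillaries, and at 1 week of age its glia still divide and myelin is being laid down. A comparison that is common to both strains asks which transcripts follow the *En1* genotype whatever the genetic background.

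*En1* (ENSMUSG00000058665; GRCm39 chromosome 1, 120530108 to 120535721, plus strand), the targeted gene, did not separate the genotype labels and so does not check them. Its mean difference between hemizygous and WT mice was -1.72 on the scale of log2(normalized count + 1), with an exact two-sided p of 0.47 from 400 permutations of the genotype labels within strains, which can give no p below 0.005. The log2 fold change of *En1* had opposite signs in the strains, 4.74 in OF1 and -6.75 in C57 mice. Its paralog *En2* had 137 normalized counts in the OF1-*En1*+/- mouse SW22, 125 in the C57 WT mouse C572S, 8.36 in C572 and 0 in the other 9 mice. SW22 and C572S also held the most *En1*, with 691 and 1071 against at most 15.2 in the other 10, and had 85968 and 121821 counts of *Th*, the rate-limiting enzyme of dopamine synthesis, against at most 1447 in the other 10. The defining dopaminergic markers were thus low in most libraries labelled SNpc. The C57-*En1*+/- mouse C572 held 1330.5 counts of *Xist* and 0 of the Y-linked *Ddx3y*, against its male label. Depth was 13538864 to 30927714 estimated reads in OF1 mice, 61433970 to 168741283 in C57 WT and 20030280 to 37754338 in C57-*En1*+/- mice, so depth and genotype cannot be told apart in the C57 strain. Counts that lead a result below are therefore also given without SW22 and C572S, and without these and C572.

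In the quasi-likelihood test of edgeR, with p adjusted by Benjamini-Hochberg over all 18017 genes, 0 genes were higher (0%) and 0 lower (0%) in the hemizygous mice at an adjusted p under 0.05. The smallest adjusted p was 0.242, shared by 15 genes, and 1875 genes (10.4%) had an unadjusted p under 0.05, of which 1863 had the same sign in both strains. limma voom with quality weights also called 0 genes, with a smallest adjusted p of 0.0790 and 2849 genes at an unadjusted p under 0.05. DESeq2 called 86 genes higher (0.477%) and 67 lower (0.372%), and all 153 had the same sign in both strains. Its count ran from 43 to 598 when single mice were left out, was 393 without SW22 and C572S and 343 without C572 as well, and of these 111 and 90 were among the 153.

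A second description used the values of each mouse. In 80 genes (0.444%) every hemizygous mouse was above every WT mouse within OF1 and also within C57, and in 185 genes (1.03%) every hemizygous mouse was below. In another 88 genes (0.488%) the groups did not overlap in either strain but the directions were opposite. Across strains, 42 of the 80 and 97 of the 185 also kept all 6 hemizygous mice apart from all 6 WT mice. The 80 higher genes had a median log2 fold change of 0.92 (quartiles 0.61 and 1.24), and the 185 lower genes one of -0.63 (quartiles -0.83 and -0.49). Protein-coding genes made up 77 of the 80 and 178 of the 185. DESeq2 called 40 of the higher and 49 of the lower ones. Because the rule of non-overlap fixed their direction, these sizes are a description.

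The balance of higher and lower genes in that set depended on the scaling. Lower genes were 69.8% of the non-overlapping ones with TMM factors, 58.2% with relative log expression factors (104 higher, 145 lower), 57.7% with offsets for transcript length (110 and 150) and 50.6% with every library thinned to the shallowest one (118 and 121). The median log2 fold change of all tested genes was -0.02, and lay between -0.06 and 0.02 under every alternative run. Without SW22 and C572S the set held 386 higher and 579 lower genes (60.0% lower), and all 265 genes were still in it. Without C572 as well it held 540 and 693 (56.2% lower), with 254 of the 265. Smaller groups overlap less often by construction.

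**Figure D1:**
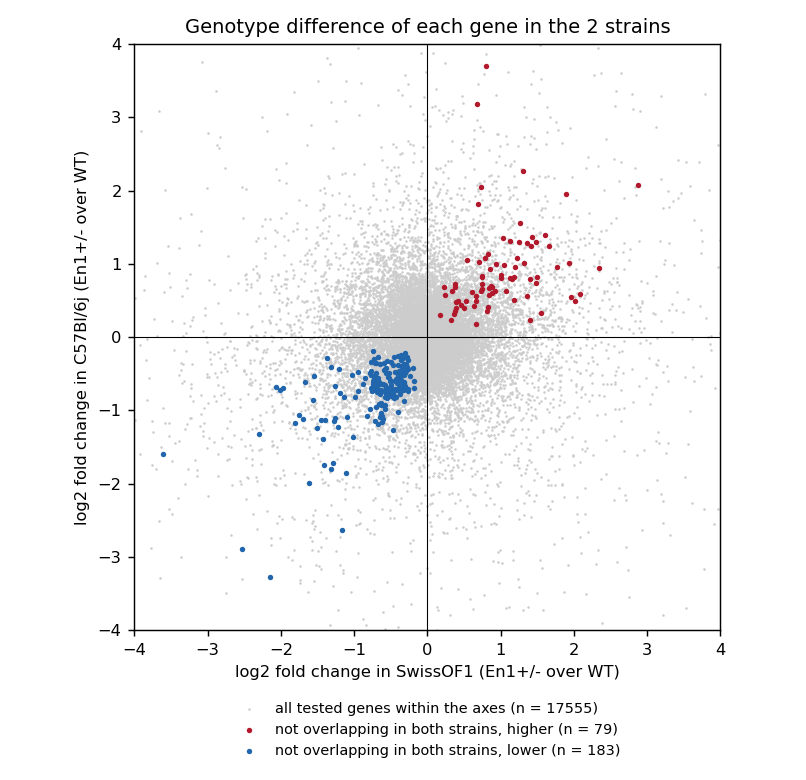
Log2 fold change of each tested gene between hemizygous and WT mice in OF1 (x axis) and in C57 mice (y axis), with 462 genes beyond the axes not drawn. Genes whose groups did not overlap in both strains are in red (higher, 79 of 80 drawn) and blue (lower, 183 of 185 drawn); by construction they lie in the upper right and lower left, while the grey genes fill all 4 quadrants.

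The genes described next are the 12 with the smallest p in each direction among the 80 and the 185 genes above that had a mean count of 50 or more. They were chosen by these values, so folds and p describe them and do not test them. Fold changes are log2 values from edgeR ± an approximate standard error (SE), over 6 hemizygous and 6 WT mice. The SE was derived as the absolute log2 fold change divided by the square root of the F statistic of the test. Each of the 24 kept its sign under all 27 alternatives, and all 24 were among the DESeq2 calls. Their choice by non-overlap and small p in these same counts made both outcomes likely in advance.

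Upstream sequence is shown for at most 3 leading genes in each direction, since genes that move together may be compared at their starts. They were the first by p whose RefSeq promoter window holds at least 100 bases clear of annotated exons. *Ppic* and leading genes without an entry in the promoter table were not examined, nor were lower genes ranked after *Klhl26*. The bases come from the RefSeq promoter table (GRCm38.p6) and were placed on GRCm39, the build of the deposited files, by their single exact match. Each is read 5′ to 3′ on the strand of its gene up to the start or the first annotated exon, and capitals mark CCAAT or its reverse complement ATTGG. *Il2rg* and *Gins3* were higher in hemizygous mice, and the other 3 were lower.
Il2rg, chrX:100311862-100312111, minus strand: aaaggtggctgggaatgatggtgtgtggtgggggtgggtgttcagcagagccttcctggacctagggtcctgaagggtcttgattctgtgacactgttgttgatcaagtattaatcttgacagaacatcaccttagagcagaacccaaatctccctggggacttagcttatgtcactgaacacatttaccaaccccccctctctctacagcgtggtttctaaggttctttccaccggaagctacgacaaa
Gins3, chr8:96359937-96360080, plus strand: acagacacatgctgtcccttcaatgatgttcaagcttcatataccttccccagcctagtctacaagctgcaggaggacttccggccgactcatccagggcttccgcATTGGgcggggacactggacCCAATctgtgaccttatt
Mkrn3, chr7:62069902-62070151, minus strand: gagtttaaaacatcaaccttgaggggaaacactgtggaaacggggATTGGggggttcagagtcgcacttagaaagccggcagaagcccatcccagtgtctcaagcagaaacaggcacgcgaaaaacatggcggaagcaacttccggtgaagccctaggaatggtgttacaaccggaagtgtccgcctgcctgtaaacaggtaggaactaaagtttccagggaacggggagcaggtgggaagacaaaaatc
Kcna3, chr3:106943228-106943477, plus strand: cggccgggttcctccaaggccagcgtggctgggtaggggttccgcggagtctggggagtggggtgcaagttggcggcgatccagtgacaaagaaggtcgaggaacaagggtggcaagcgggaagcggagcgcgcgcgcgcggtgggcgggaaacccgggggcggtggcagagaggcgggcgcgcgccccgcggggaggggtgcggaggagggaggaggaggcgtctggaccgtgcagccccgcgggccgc
Klhl26, chr8:70929734-70929845, minus strand: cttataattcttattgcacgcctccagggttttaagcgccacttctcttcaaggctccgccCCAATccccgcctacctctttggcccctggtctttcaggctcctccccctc

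3 motifs were searched on both strands of the 250 bases before the start of 27025 genes, with overlapping matches allowed. TAATTA, the core that homeodomain proteins such as Engrailed bind and which reads the same on both strands, was in 4.90% of all of them and in 2.59% of the 12611 that belong to tested genes. It was in 3 of 66 promoters of the higher genes (4.55%) and in 1 of 138 of the lower genes (0.725%), and in none of the 5 sequences above. CCAAT, the box bound by the NF-Y complex, was in 34.5% of all promoters and 36.0% of those of tested genes, in 33 of 66 of the higher set (50.0%) and in 52 of 138 of the lower set (37.7%). TATAAA, the TATA box, was in 13.0% of all, 7.04% of tested, 3.03% of higher and 5.80% of lower genes. A match describes letters and is not evidence of binding.

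Among the higher genes, several are known from the vessel wall. *Slco1c1* (ENSMUSG00000030235; chromosome 6, 141469705 to 141516710, plus strand) encodes a thyroid hormone transporter of brain capillaries. *Slco1c1* had 2355, 2422 and 1359.9 normalized counts in the OF1 WT mice and 3917, 5053 and 4682 in the OF1-*En1*+/- mice, and 1389, 996 and 1407 in the C57 WT and 1639, 2463 and 2479 in the C57-*En1*+/- mice. All hemizygous mice were above the WT mice of their own strain, while the OF1 WT and C57-*En1*+/- mice shared a range. The log2 fold change was 0.97 ± 0.18, with 1.15 ± 0.26 in OF1 and 0.80 ± 0.26 in C57 mice (edgeR adjusted p = 0.242, DESeq2 0.000466). *Car4* (chromosome 11, 84848020 to 84856879, plus strand), a carbonic anhydrase on the luminal face of capillaries, ran from 433 to 857 (median 493) in WT and from 727 to 3224 (median 1288) in hemizygous mice, a difference of 1.36 ± 0.28. *Ackr1* (chromosome 1, 173159453 to 173161317, minus strand), a decoy chemokine receptor of venules, ran from 97.7 to 471 (median 294) and 279 to 1008 (median 576), with 1.23 ± 0.37 in OF1 and 1.08 ± 0.37 in C57 mice. Its groups overlapped across strains and not within them, because C57 mice of both genotypes held more.

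*Id3* (ENSMUSG00000007872; chromosome 4, 135870808 to 135873066, plus strand) encodes an inhibitor of DNA binding that is induced by BMP signalling, in endothelium among other cells. *Id3* had 1225, 1405 and 1026 normalized counts in the OF1 WT mice and 1505, 2609 and 2876 in the OF1-*En1*+/- mice, and 1271, 1006 and 984 in the C57 WT and 1587, 2428 and 2514 in the C57-*En1*+/- mice. Every hemizygous mouse exceeded all 6 WT mice, the nearest pair being SW21 and the WT mouse SW7. The difference was 0.97 ± 0.18, a 1.96-fold change, and almost the same size in each strain, 0.94 and 1.00. *Myl12a* (chromosome 17, 71299231 to 71310871, minus strand), a regulatory light chain of non-muscle myosin that also serves smooth muscle, had 671 to 1048 (median 792) in WT and 1263 to 1969 (median 1507) in hemizygous mice and a difference of 0.94 ± 0.17. Its near-identical neighbour *Myl12b* can share reads with it, so its level is uncertain.

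*Ppic* (ENSMUSG00000024538; chromosome 18, 53539399 to 53551187, minus strand) had the smallest p of all genes (3.57e-05). It encodes cyclophilin C, a peptidyl-prolyl isomerase of the secretory pathway. *Ppic* had 613, 617 and 397 normalized counts in the OF1 WT mice and 1187, 1198 and 1290.2 in the OF1-*En1*+/- mice, and 544, 531 and 535 in the C57 WT and 889.9, 1140.3 and 816 in the C57-*En1*+/- mice. The 6 hemizygous mice all lay above the 6 WT mice, and the OF1 WT mouse SWG was the lowest. The level was 2.00-fold higher (1.00 ± 0.16), with 1.18 ± 0.23 in OF1 and 0.82 ± 0.22 in C57 mice. Its adjusted p was 0.242 by edgeR, 0.079 by limma voom and 1.31e-05 by DESeq2.

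*Il2rg* (ENSMUSG00000031304; chromosome X, 100307984 to 100311861, minus strand) encodes the common gamma chain shared by the receptors for interleukins such as IL-2, IL-7 and IL-15, and it is the gene of X-linked severe combined immunodeficiency. *Il2rg* had 113, 208 and 169 normalized counts in the OF1 WT mice and 398, 493 and 424 in the OF1-*En1*+/- mice, and 148, 109 and 154 in the C57 WT and 260.4, 419 and 296 in the C57-*En1*+/- mice. Again no hemizygous mouse reached down to the WT range, which ended at 208. The level was 2.52-fold higher (1.33 ± 0.23), with 1.42 ± 0.33 in OF1 and 1.25 ± 0.33 in C57 mice, an edgeR adjusted p of 0.242 and a DESeq2 one of 1.31e-05. Leaving out single or doubtful mice and changing the fit kept it between 1.13 and 1.53. *Grap* (chromosome 11, 61544051 to 61563610, plus strand), an adaptor of cytokine and antigen receptor signalling, had 162 to 381 (median 200.1) in WT and 259 to 715 (median 612) in hemizygous mice, 1.27 ± 0.26.

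Downstream of *Grap* on the same strand lies *Fam83g* (chromosome 11, 61574861 to 61600777, plus strand), which encodes a binding partner of a casein kinase. It was higher in WT mice. *Fam83g* had 448, 35.1 and 325 normalized counts in the OF1 WT mice and 5.28, 0 and 0 in the OF1-*En1*+/- mice, and 43.1, 0 and 34.1 in the C57 WT and 0, 0 and 0 in the C57-*En1*+/- mice. Only the OF1 groups were apart, and 5 of 6 hemizygous mice were at 0, as was the WT mouse C572S. DESeq2 called it (adjusted p = 7.26e-05), edgeR gave 0.242, and no fold is given because the C57-*En1*+/- mice were all at 0.

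*Gins3* (ENSMUSG00000031669; chromosome 8, 96360081 to 96392066, plus strand), whose printed upstream bases hold CCAAT and ATTGG, is a subunit of the GINS complex of the replicative helicase. *Gins3* had 63.7, 147 and 81 normalized counts in the OF1 WT mice and 259, 244 and 392 in the OF1-*En1*+/- mice, and 113, 71.2 and 139 in the C57 WT and 248, 339.7 and 264 in the C57-*En1*+/- mice. The groups did not overlap in either strain or across them. It was 2.83-fold higher, the largest fold among the 12 leading higher genes, with 1.61 ± 0.42 in OF1 and 1.40 ± 0.42 in C57 mice. *Nmnat1* (chromosome 4, 149552026 to 149569680, minus strand), the nuclear enzyme that makes NAD and whose family protects axons, had 199 to 252 (median 232) in WT and 356 to 533 (median 418) in hemizygous mice, a difference of 0.92 ± 0.18 with a DESeq2 adjusted p of 7.26e-05.

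The set also held enzymes of glycan synthesis. *St3gal6* (chromosome 16, 58286438 to 58344780, minus strand), a sialyltransferase, had 194 to 508 (median 323) in WT and 624 to 1241 (median 782) in hemizygous mice, a difference of 1.32 ± 0.25. *Alg14* (chromosome 3, 121085375 to 121158602, plus strand), which helps to build the lipid-linked sugar for N-glycosylation, had 795 to 1183 (median 950.3) and 1331 to 1895 (median 1460.4), a difference of 0.68 ± 0.15. Both separated all 6 hemizygous from all 6 WT mice.

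**Figure D2:**
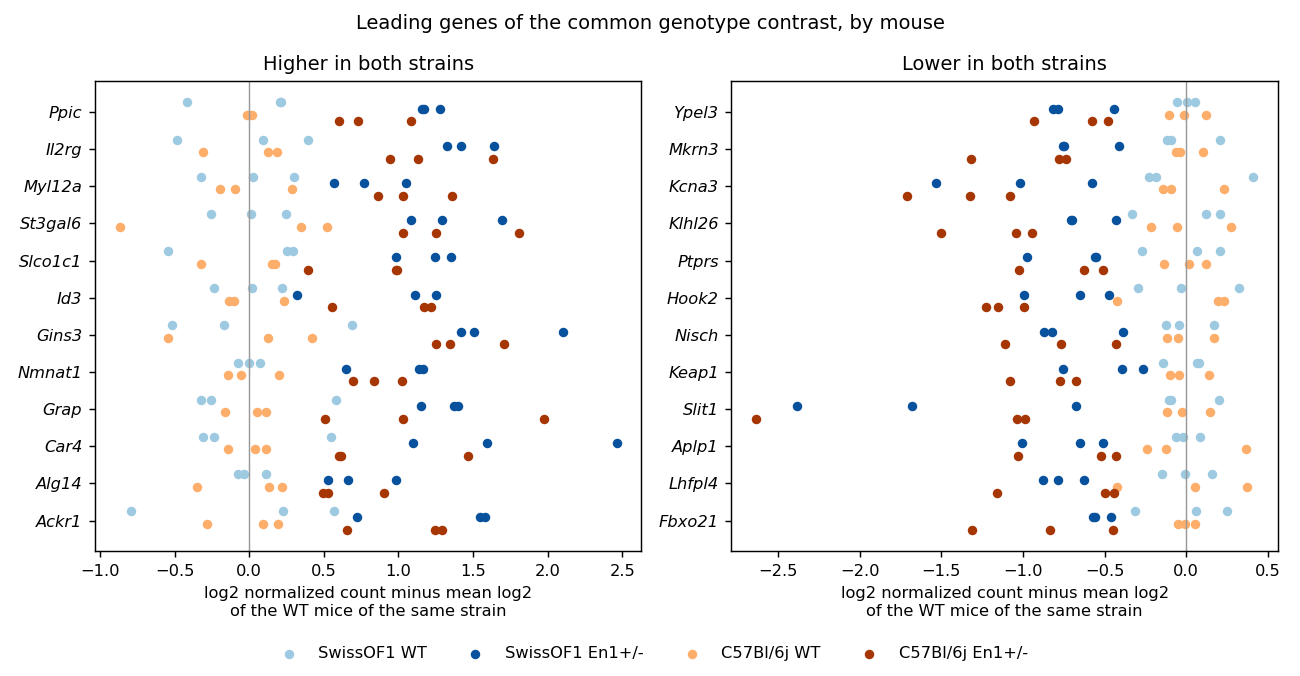
Log2 normalized count of the 12 leading higher (left) and 12 leading lower genes (right) in each mouse, minus the mean log2 value of the WT mice of the same strain; each point is 1 mouse and colours mark the 4 groups. By the choice of these genes the dark points of hemizygous mice lie to 1 side of the pale WT points of their strain.

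The leading lower genes included proteins of the neuronal surface. *Slit1* (ENSMUSG00000025020; chromosome 19, 41588676 to 41732268, minus strand) encodes a secreted axon repellent that binds Robo receptors and steers midbrain dopaminergic axons among others. *Slit1* had 1168, 1443 and 1176 normalized counts in the OF1 WT mice and 393, 786 and 241 in the OF1-*En1*+/- mice, and 1532, 1726 and 1442 in the C57 WT and 762, 252 and 786 in the C57-*En1*+/- mice. All 6 hemizygous mice lay below the lowest WT mouse, SW31, and SWB and C572 held the least. It was 2.64-fold lower (-1.40 ± 0.31), with -1.42 ± 0.45 in OF1 and -1.38 ± 0.45 in C57 mice (edgeR adjusted p = 0.347, DESeq2 0.00556).

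*Kcna3* (ENSMUSG00000047959; chromosome 3, 106943485 to 106945386, plus strand) encodes the voltage-gated potassium channel Kv1.3 of neurons, microglia and lymphocytes. *Kcna3* had 731, 471 and 485 normalized counts in the OF1 WT mice and 369.7, 272 and 190.3 in the OF1-*En1*+/- mice, and 555, 536 and 695 in the C57 WT and 236, 181 and 279.6 in the C57-*En1*+/- mice. The groups were apart within and across strains. The difference was -1.19 ± 0.22, or 2.28-fold lower, and its upstream bases were the richest in GC of the 5 printed (74.4%, with 31 CpG).

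*Ptprs* (chromosome 17, 56718507 to 56783537, minus strand), a receptor phosphatase that binds proteoglycans and restrains axon growth, had 8542 to 11909.5 (median 10722) in WT and 5166 to 7379.6 (median 6909.9) in hemizygous mice, -0.70 ± 0.14. *Aplp1* (chromosome 7, 30134404 to 30145102, minus strand), a neuronal relative of the amyloid precursor protein, was the most abundant of the 24, with 19395 to 29535 (median 24281) and 11218 to 17525 (median 15936), -0.69 ± 0.15. *Lhfpl4* (chromosome 6, 113145047 to 113172348, minus strand), which anchors GABA-A receptors at inhibitory synapses, had 3015 to 5230.2 (median 4204) and 1815 to 2978 (median 2600.4), -0.73 ± 0.16. All 3 kept the 6 hemizygous mice below the 6 WT mice. In *Lhfpl4* the gap was narrow, from 2978 to 3015.

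Other lower genes encode ubiquitin ligases or their adaptors. *Keap1* (ENSMUSG00000003308; chromosome 9, 21141026 to 21150679, minus strand) is the adaptor that sends the antioxidant factor Nrf2 to degradation. *Keap1* had 2263, 1952 and 2276 normalized counts in the OF1 WT mice and 1279.9, 1799.8 and 1643 in the OF1-*En1*+/- mice, and 2309.5, 2406 and 2733 in the C57 WT and 1449, 1171 and 1549 in the C57-*En1*+/- mice. The highest hemizygous mouse, SW22, lay just under the lowest WT mouse, SW7. The difference was -0.65 ± 0.14, with -0.46 ± 0.19 in OF1 and -0.84 ± 0.19 in C57 mice and a DESeq2 adjusted p of 0.00662. *Mkrn3* (chromosome 7, 62067341 to 62069887, minus strand), an imprinted intronless ligase gene known for its role in the timing of puberty, had 2176 to 2990.2 (median 2689) in WT and 1119 to 1777 (median 1512) in hemizygous mice, -0.78 ± 0.14. *Klhl26* (chromosome 8, 70902869 to 70929733, minus strand), a Kelch-type adaptor, had 1750.2 to 2997 (median 2388) and 875 to 1635 (median 1318), and *Fbxo21* (chromosome 5, 118114795 to 118148269, plus strand), an F-box protein, differed by -0.69 ± 0.15. *Fbxo21* was the only 1 of the 12 lower genes in which hemizygous and WT mice of different strains overlapped.

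*Ypel3* (ENSMUSG00000042675; chromosome 7, 126376112 to 126379723, plus strand), a small zinc-binding protein linked to growth arrest, had the smallest p of these 12. *Ypel3* had 4757, 4394 and 4587 normalized counts in the OF1 WT mice and 2604, 3362 and 2652 in the OF1-*En1*+/- mice, and 4005, 3755 and 4403 in the C57 WT and 2903, 2123 and 2711 in the C57-*En1*+/- mice. The hemizygous mouse SW22 came nearest to the WT mice, of which C572S was the lowest. The difference was -0.66 ± 0.12, a 1.58-fold lower level, with -0.67 ± 0.17 in OF1 and -0.65 ± 0.17 in C57 mice. *Hook2* (chromosome 8, 85717191 to 85730956, plus strand), a dynein adaptor, and *Nisch* (chromosome 14, 30891327 to 30938903, minus strand), which binds integrins, differed by -0.93 ± 0.18 and -0.71 ± 0.14. In both the groups were apart within and across strains.

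The genes were then read by lists of cell types and pathways. Over all tested genes 48.0% had a log2 fold change above 0, and edgeR called no member of any of the 29 lists, so counts of members are set beside that share, beside the 10.4% with an unadjusted p under 0.05 and beside the shares of DESeq2 calls given above. The level of a list in a mouse is the mean log2 CPM (counts scaled to the size of the library) of its tested members.

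Of the endothelial markers all 21 were above 0 in the common fit, 17 of them in both strains (24.7% over all genes), with a median of 0.65, 0.61 in OF1 and 0.52 in C57 mice. An unadjusted p under 0.05 was found for 10 of them, and DESeq2 called *Ramp2*, *Esam* and *Tie1*. Of the 21 markers 0 were apart in both strains, against 0.444% higher and 1.03% lower over all genes. Without SW22 and C572S 20 of 21 were above 0 with a median of 0.53, and without C572 as well 20 with 0.43. Their level was 3.24 to 3.96 in WT and 3.68 to 4.48 in hemizygous mice of OF1, and 3.44 to 3.65 in WT and 3.84 to 4.47 in hemizygous mice of C57, so that the groups overlapped in OF1 and were apart in C57. *Ramp2*, the partner of the adrenomedullin receptor, had 540.2 to 944 (median 617) in WT and 871 to 1416 (median 1084) in hemizygous mice (0.76 ± 0.18). *Esam*, an endothelial adhesion molecule, had 551 to 1864 (median 923) and 1462 to 2068 (median 1899) (0.91 ± 0.25), the OF1 WT mouse SW7 reaching into the hemizygous range. The median of the list stayed between 0.43 and 0.74 under all alternatives.

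Markers of mural cells and fibroblasts had a median of 0.44, with 9 of 15 above 0 and 8 higher in both strains, but of 0.01 without C572 and 0.14 without the WT mouse SWG. The pericyte gene *Rgs5* had 797 to 2089 (median 1228) in WT and 1666 to 3619.6 (median 2428) in hemizygous mice (0.90 ± 0.24, DESeq2 adjusted p = 0.0358), and the pericyte channel gene *Kcnj8* differed by 0.72 ± 0.23. Only the C57 groups of both genes were apart. Red blood cell genes, 5 of 5 above 0 in the common fit, had a median of -0.34 in OF1 mice and one of 1.17 in C57 mice. The part of the endothelial level of each library in the values of *Slco1c1*, *Car4* and *Ackr1* was not tested.

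Genes of cell division and DNA replication were above 0 in 26 of 29 cases, in both strains in 21, and in 26 of 29 again under both ways of leaving out the doubtful mice. Their median was 0.53, with 0.93 in OF1 and 0.18 in C57 mice. The level of the list was 1.74 to 2.64 in WT and 2.86 to 3.29 in hemizygous mice of OF1 without overlap, and 2.94 to 3.41 in WT and 3.06 to 3.78 in hemizygous mice of C57 with overlap. *Birc5*, *Cdk1*, *Plk1* and *Bub1b*, all of mitosis, were apart in both strains, against 0.444% of all genes. *Birc5*, which encodes survivin, a subunit of the chromosomal passenger complex, was the 1 DESeq2 call (adjusted p = 0.0341). *Birc5* had 113, 80.7 and 52.2 normalized counts in the OF1 WT mice and 149.6, 207 and 180.1 in the OF1-*En1*+/- mice, and 171, 214 and 180.3 in the C57 WT and 283, 465 and 244 in the C57-*En1*+/- mice. Every hemizygous mouse was above the WT mice of its strain, but the C57 WT mice overlapped with the OF1-*En1*+/- mice. *Cenpf*, a kinetochore protein, had a difference of 1.19 ± 0.36, with its C57 groups overlapping. With the GC index of the libraries, described below, as a covariate the median of the list was 0.26.

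*Smc2*, a condensin subunit, did not share this direction. It had 245, 175 and 209 in OF1 WT and 363, 353 and 340.0 in OF1-*En1*+/- mice, which did not overlap, but 409, 359.6 and 370.4 in C57 WT and 252, 416 and 414 in C57-*En1*+/- mice. The strain values were 0.75 ± 0.28 in OF1 and -0.07 ± 0.28 in C57 mice.

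Microglial markers were above 0 in 15 of 17 cases and in both strains in 14, with a median of 0.34. Without C572 the median was 0.19 with 13 of 17 above 0, and without the WT mouse SW7 it was 0.61. *P2ry12*, the purinergic receptor of resting microglia, was apart in both strains (882, 949 and 715 against 1570.4, 1756 and 1147 in OF1, 623, 585 and 525 against 800.5, 769 and 638 in C57 mice) and was called by DESeq2 (adjusted p = 0.0475). Its log2 fold change was 0.58 ± 0.16. The cathepsin gene *Ctss* of the same list differed by 0.68 ± 0.27, or 0.43 without the 3 doubtful mice, with overlap in both strains. Other leukocyte markers had a median of -0.01 over 5 tested genes, among them *Ptprc* (-1.20 ± 1.28) and *Ly6c2* (-0.08 ± 0.68), both of which changed sign under some alternatives.

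Oligodendrocyte and myelin genes were above 0 in 15 of 17 cases and in both strains in 14. Their median was 1.32, with 0.62 in OF1 and 1.93 in C57 mice. It was 0.24 without C572, whose list level was 6.24 against 2.78 and 2.02 in the other 2 C57-*En1*+/- mice. *Mbp*, the myelin basic protein gene, had 18896, 16584 and 9299.5 in OF1 WT and 63869, 26085 and 31194 in OF1-*En1*+/- mice, which were apart, and 5671, 14277 and 6245 in C57 WT and 11096, 100946 and 4416 in C57-*En1*+/- mice, which were not. Its log2 fold change was 1.79 ± 0.65, and 0.76 without C572. *Pmp22*, a myelin gene of peripheral nerve that other cells also express, was apart in both strains and across them, with 194 to 483 (median 335) in WT and 499 to 11594 (median 634) in hemizygous mice, a difference of 2.27 ± 0.76 that was 1.33 without C572. Precursor markers had a median of 0.19, and of these *Bcas1*, a gene of newly forming oligodendrocytes, was called by DESeq2 (1.15 ± 0.31, adjusted p = 0.0236) with C57 groups that overlapped. *Neu4*, a sialidase of the lineage, differed by 0.97 ± 0.29.

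Astrocyte markers had a median of 0.32, with 11 of 16 above 0 and 10 in both strains. *Acsbg1* differed by 0.71 ± 0.24 and *S100b* by 1.36 ± 0.55, or 0.53 without C572, and in neither were both strains apart. Markers of progenitors and immature neurons, 8 of 9 above 0, had a median of 0.16. *Pax3*, a paired-box factor of the dorsal midbrain, was at 0 in all 6 WT mice, and it had 119, 29.3 and 18.9 normalized counts in SW22, C572 and C575 and 0 in the other 3 hemizygous mice. Its edgeR adjusted p was 0.387, and DESeq2 gave none.

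**Figure D3:**
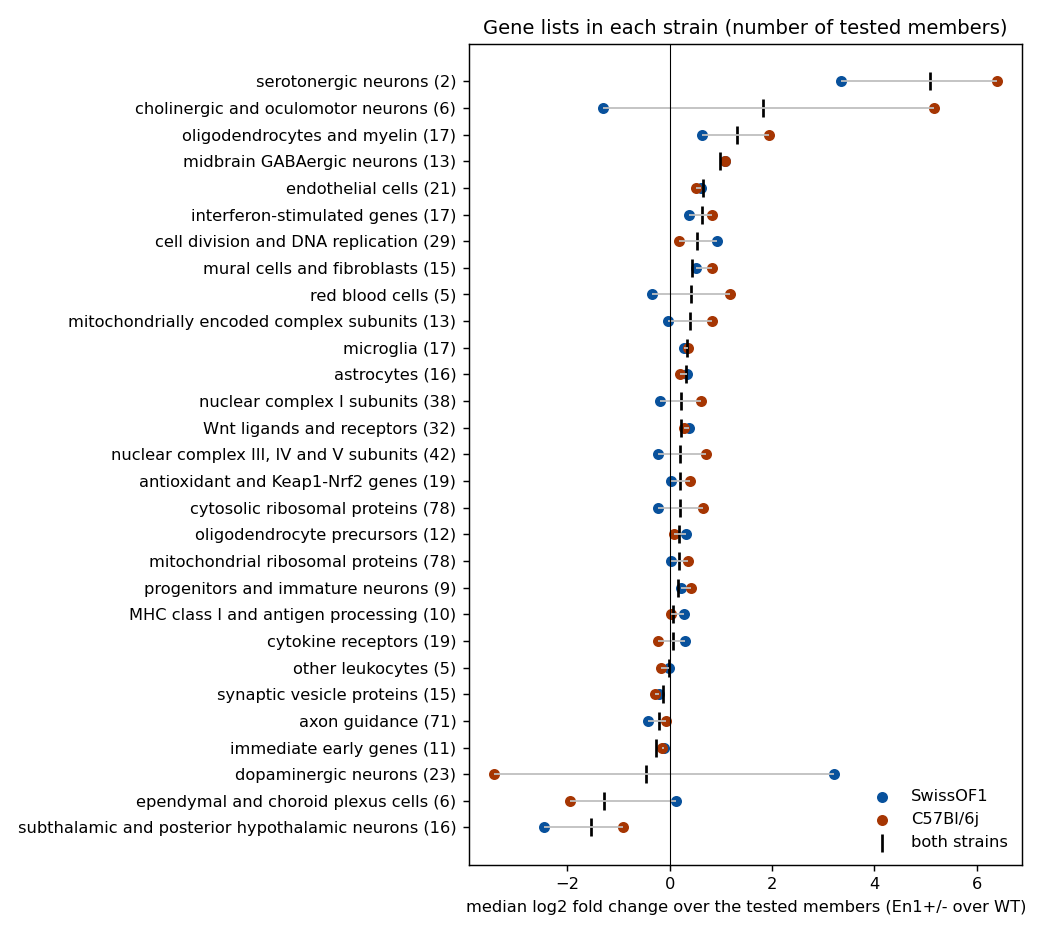
Median log2 fold change of the tested members of each of the 29 gene lists (number in brackets) in OF1 mice (blue), in C57 mice (brown) and in the fit common to both (black bar). Endothelial, microglial and midbrain GABAergic lists lie above 0 at about the same value in both strains, while the dopaminergic list lies at 3.21 in OF1 mice and at -3.43 in C57 mice.

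Among neuronal lists, markers of midbrain GABAergic neurons were above 0 in 12 of 13 cases and in both strains in 10, with 1.07 as the median in OF1 and 1.08 in C57 mice, though the levels of the list overlapped in both strains. Without SW22, C572S and C572 9 of 12 were above 0. *Pvalb*, which encodes parvalbumin, had 4.72, 11.7 and 59.9 in OF1 WT and 96.8, 112 and 91.2 in OF1-*En1*+/- mice, and 57.5, 28.2 and 6.99 in C57 WT and 16, 172 and 3321 in C57-*En1*+/- mice, where C575 held almost all of it.

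Subthalamic and posterior hypothalamic markers were below 0 in 13 of 16 cases and in both strains in 10 (29.8% over all genes). Their median was -1.54, with -2.45 in OF1 and -0.91 in C57 mice. The level of the list was 3.24 to 4.24 in WT and 1.69 to 2.29 in hemizygous mice of OF1 without overlap, and 1.92 to 5.01 in WT and 1.20 to 4.51 in hemizygous mice of C57 with overlap. *Tac1*, the precursor of substance P, was the member called by DESeq2 (adjusted p = 0.00108). *Tac1* had 10049.6, 6609 and 4361 normalized counts in the OF1 WT mice and 567, 495 and 122 in the OF1-*En1*+/- mice, and 3490.4, 1823 and 13535 in the C57 WT and 1404, 631 and 2095 in the C57-*En1*+/- mice. OF1 groups were far apart, and in C57 mice the hemizygous mouse C575 exceeded the WT mouse C572S. *Adcyap1*, the neuropeptide gene PACAP, differed by -1.77 ± 0.69, and by -3.14 without SW22 and C572S. Leaving out the doubtful mice kept 13 of 16 below 0, and the GC covariate brought the median to -0.57. These regions border the nigra, and the part of the dissected area in these values was not tested.

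Of 71 tested axon guidance ligands and receptors 44 were below 0 and 33 were lower in both strains, against 29.8% of all genes, with 17 higher in both. The median was -0.21, but -0.43 in OF1 and -0.06 in C57 mice, and 17 had an unadjusted p under 0.05. Without C572 it was -0.32 and without C575 -0.44. DESeq2 called *Slit1* and *Dcc*, the netrin receptor, which had 644 to 1928 (median 1147) in WT and 320.4 to 922 (median 389) in hemizygous mice with overlap in both strains (-1.26 ± 0.34, DESeq2 adjusted p = 0.0456). Only *Slit1*, chosen above for its non-overlap, and *Ephb6*, a kinase-dead ephrin receptor, were lower and apart in both strains, against 1.03% of all genes. Only *Sema7a*, a membrane-bound semaphorin, was higher and apart in both, against 0.444% of all genes. *Ephb6* and *Sema7a* were named after their values were seen. Synaptic vesicle proteins had a median of -0.14, with *Vamp1* higher (1.66 ± 0.47, DESeq2 adjusted p = 0.0153) and *Syn1* lower (-0.49 ± 0.17). *Vamp1* was highest in SW21 and C572, at 18702 and 28713 against at most 9165 elsewhere, and its log2 fold change was 1.01 without C572.

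Cytokine receptors were split, with 6 of 19 higher and 6 lower in both strains and a median of 0.07. Over all genes 0.444% were higher and apart in both strains, and 1.03% were lower and apart. Of these receptors *Il2rg*, described above and chosen there for its non-overlap, was 1 of 2 apart in both strains. The other was *Csf2ra*, the alpha chain of the GM-CSF receptor, which was lower, with 276, 274 and 324 in OF1 WT and 148, 156 and 136 in OF1-*En1*+/- mice, and 449.5, 283 and 340.1 in C57 WT and 181, 157 and 268 in C57-*En1*+/- mice (-0.91 ± 0.22, DESeq2 adjusted p = 0.0153). Interferon-stimulated genes had a median of 0.64, with 11 of 17 higher in both strains, led by *Ifitm3* (0.86 ± 0.31) and *Oasl2* (1.06 ± 0.41, or 0.67 without C572), and neither DESeq2 nor edgeR called any of them. With the GC covariate the median was 0.36. Genes of MHC class I had a median of 0.07, with *B2m* at 0.88 ± 0.30, or 0.57 without C572, and *Tap1* at -0.88 ± 0.38.

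Of 19 antioxidant genes 1 was higher and apart in both strains, *Nfe2l2*, against 0.444% of all genes, and 1 was lower and apart, against 1.03%. The latter is *Keap1*, described above and chosen there for its non-overlap. *Nfe2l2*, which encodes Nrf2, had 222, 291 and 218 in OF1 WT and 421, 544 and 346 in OF1-*En1*+/- mice, and 345, 311 and 217 in C57 WT and 396, 579 and 408 in C57-*En1*+/- mice. It was 1.68-fold higher (0.75 ± 0.21, DESeq2 adjusted p = 0.0434), while *Keap1* was 1.57-fold lower. Nrf2 activates genes of glutathione and thioredoxin metabolism. The list as a whole had a median of 0.20, with 9 of 19 higher in both strains and 0 further DESeq2 calls.

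Some lists whose median was above 0 in the common fit had opposite signs in the strains, so that the common value averaged them. Nuclear complex I subunits, 37 of 38 above 0 in the common fit, had a median of -0.19 in OF1 mice and one of 0.62 in C57 mice, and 6 were higher in both. Subunits of complexes III, IV and V had -0.23 and 0.71, and cytosolic ribosomal proteins -0.23 and 0.65. The 13 mitochondrially encoded subunits had -0.04 and 0.83, and 4 of them were higher in both strains. *mt-Atp6* (0.51 ± 0.18) and *mt-Atp8* (0.47 ± 0.17), which overlap and can share reads, led them. *Rps18* (0.55 ± 0.18) and *Rpsa* (0.53 ± 0.21) led the ribosomal list, and both have processed copies that can share reads.

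Common values were also given by *Ndufs8* and *Ndufs3* of complex I (0.40 ± 0.18, or 0.27 without C572, and 0.35 ± 0.18) and *Atp5mc2* and *Cox4i2* of the other complexes (0.55 ± 0.22 and 1.08 ± 0.50). Mitochondrial ribosomal proteins were nearer to a common direction, with 39 of 78 higher in both strains and a median of 0.18, or 0.10 without C572. *Mrps18a* (0.42 ± 0.15) and *Mrps7* (0.33 ± 0.12) led them. Wnt ligands and receptors had a median of 0.22 with 13 of 32 higher in both strains, or 0.08 without C572, led by *Wnt6*, at 0 to 13.1 counts in WT and 6.39 to 64.2 in hemizygous mice, and *Fzd8* (0.78 ± 0.45, or 0.51 without SWB). Immediate early genes had a median of -0.26, while *Atf3* (1.18 ± 0.61) and *Ier3* (0.84 ± 0.43, or 0.24 without C572) were above 0. The medians of complex I, of complexes III to V and of the ribosomal list were 0.12, 0.10 and 0.09 without C572.

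Markers of dopaminergic neurons had opposite signs in the strains when all 12 mice were used. Their median was -0.46, from 3.21 in OF1, where SW22 is hemizygous, and -3.43 in C57 mice, where C572S is WT. Without SW22 and C572S the median was -0.97, with 11 of the 19 members then tested below 0, and without C572 as well it was -1.03, with 14 of 19 below 0. Without SW22 and C572S the list level was 1.09 to 1.65 in OF1 WT and 0.20 and -0.00195 in OF1-*En1*+/- mice. In C57 mice it was 1.79 and 2.86 in WT and 0.83 to 1.56 in hemizygous mice. The hemizygous levels were thus lower without overlap in each strain. However, SW22 and C572S were left out for their high *En1* and *Th*, which belong to this list, so the separation is a description. With all 12 mice the levels overlapped in OF1, where SW22 was highest, and were apart in C57 mice. *Th* had a log2 fold change of -0.89 ± 13.16 over all 12 mice and of -2.92 without SW22 and C572S. With all mice 4 of 23 had the same sign in both strains, led by *Lmx1b* (-2.08 ± 1.17) and *Lmx1a* (-2.74 ± 1.76), factors that specify these neurons. *Lmx1a* ran from 0 to 9058 (median 4627) in WT and from 0 to 2091 (median 391) in hemizygous mice. It did not follow *Th* across mice. The OF1 WT mice SWG and SW31 held 9058 and 7633 counts of *Lmx1a* but 151 and 44.8 of *Th*, while SW22 held 1281 and 85968. Without SW22 and C572S *Lmx1a* was at -5.04 and *Lmx1b* at -3.49. Cholinergic markers, 6 of 6 above 0, had a median of -1.31 in OF1 mice and one of 5.17 in C57 mice, and without C572 the common median was -0.997. The serotonergic *Slc6a4* had 1451 counts in SWB and 2123 in C572 against at most 21.4 elsewhere, and *Tph2* had 7482 in C572 against at most 76.2. Ependymal markers, with a median of -1.28 over 6 genes, were highest in the C57 WT mouse C5710, at 262 counts of *Ccdc153* and 237 of *Foxj1* against at most 12.8 and 37.8 in the others.

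**Figure D4:**
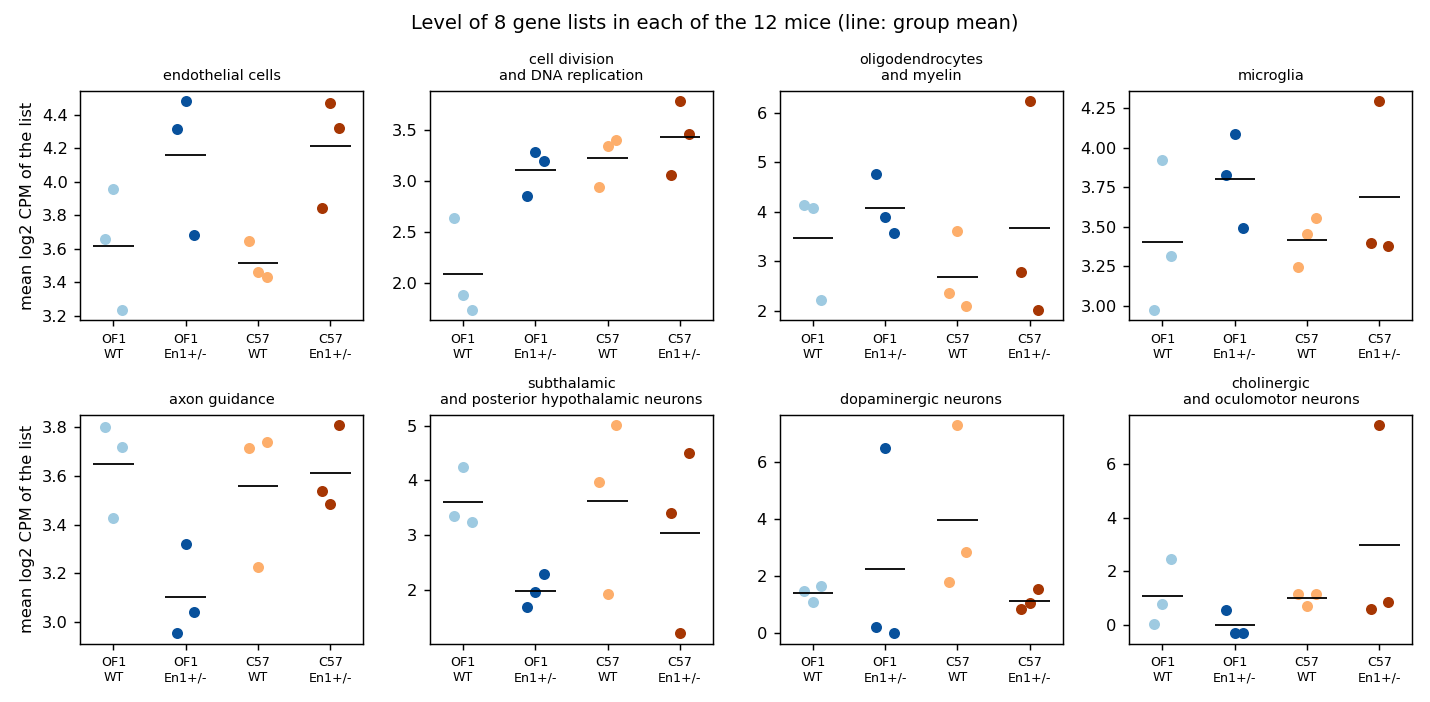
Mean log2 CPM of the tested members of 8 gene lists in each mouse, by group, with the group mean as a line; the axes differ between panels and do not start at 0. Single mice hold the high values of the dopaminergic list (SW22 at 6.52, C572S at 7.32) and the cholinergic list (C572 at 7.47), while the cell division list separates the OF1 groups.

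The lower genes shared a feature that the rule did not use, the base composition of their transcripts. The 185 lower genes had a median transcript GC content of 55.3% (quartiles 51.3 and 58.5%), against 50.0% (45.8 and 54.6%) over all tested genes and 49.5% (44.5 and 53.1%) in the 80 higher genes. The 88 genes of opposite directions had 49.8%. Median lengths were 2756.5 bases in the lower, 2072 in the higher and 2510.5 in all genes.

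The libraries differed in the same property. The mean log2 CPM of the 10% of protein-coding genes richest in GC minus that of the poorest 10% (the GC index) was -0.46, 0.38 and -0.12 in OF1 WT and -0.85, -0.68 and -0.46 in OF1-*En1*+/- mice. It was -0.43, -0.87 and -0.24 in C57 WT and -0.41, -0.68 and -0.62 in C57-*En1*+/- mice. In OF1 mice the groups did not overlap, though SW31 and SWB differed by under 0.01, and the C57 groups overlapped. Across genes, which are not independent replicates, Spearman's rho between GC content and log2 fold change was -0.21 in OF1 and -0.0021 in C57 mice. With this index as a covariate, an alternative chosen after seeing the data, edgeR again called 0 genes (2237 at an unadjusted p under 0.05). All 80 higher and all 185 lower genes kept their sign, with medians of 0.82 and -0.61, against 14814 of all 18017 tested genes. Their choice by non-overlap made this likely in advance, so the part of GC content in these values was not tested.

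**Figure D5:**
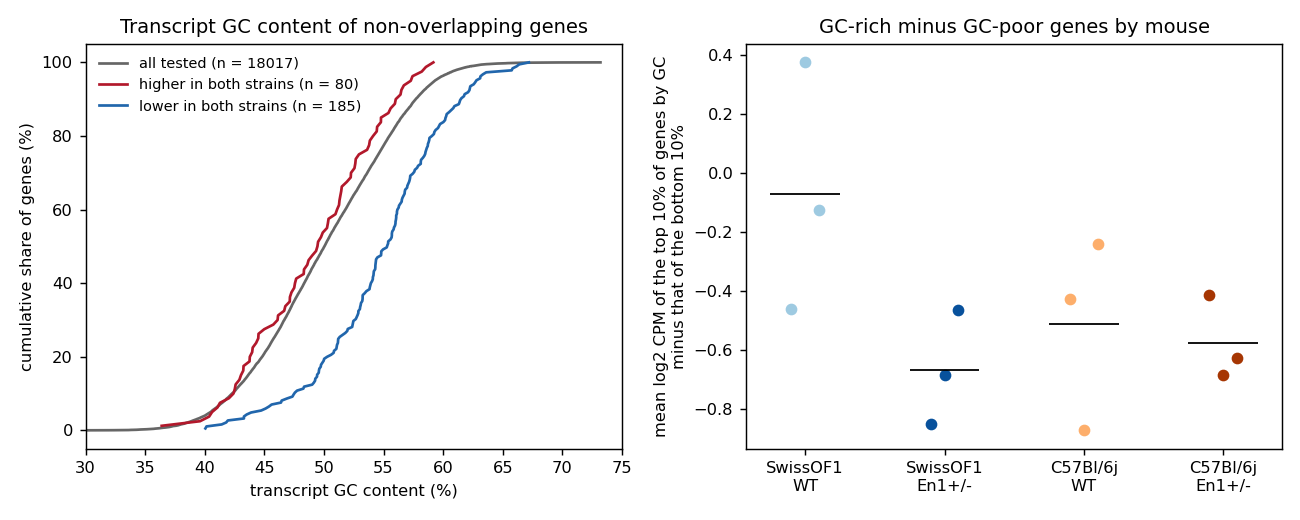
Left, cumulative share of genes (%) by transcript GC content (%) for all tested genes and for those not overlapping in both strains; the curve of the lower genes lies to the right of the others, with a median of 55.3%. Right, mean log2 CPM of the 10% of genes richest in GC minus the poorest 10% in each mouse, with group means as lines; the OF1 WT mice SW7 (0.38) and SWG (-0.12) lie highest.

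Around the disrupted allele, of 58 tested genes within 10 Mb on either side of *En1* 0 were apart in both strains, 0 were called by DESeq2 and 4 (6.90%) had an unadjusted edgeR p under 0.05, against 10.4% over all genes. Their median log2 fold change was 0.06. Of all chromosomes, number 8 held the highest share of genes apart in both strains, 1 higher and 22 lower of 942 (2.44%), *Klhl26* and *Hook2* among them. Over all tested genes the shares were 0.444% higher and 1.03% lower. Chromosome 8 was picked after the shares of all chromosomes were seen, and chromosome 16 came next with 2.06%, so this is a description.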

How the data were processed

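RNA of the laser-microdissected SNpc of 12 mice was amplified with SMART-Seq chemistry and made into Nextera XT libraries, which do not mark strand, so reads of overlapping genes on opposite strands cannot be told apart. Reads were assigned to GENCODE mouse transcripts with Salmon and its GC bias correction by the authors (Salmon and the build GRCm39 are also named in the submitters' processing notes), and the authors deposited an estimated count and a TPM (abundance scaled to length and depth) for each transcript, of which the TPM was used for no result. For this report the estimated counts of 139555 of 140790 transcripts (99.1%) were rounded after summing them to 54193 genes.

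The test, run on genes averaging 10 or more counts, was that of edgeR 4.0.16 (R 4.3.3; TMM factors, robust quasi-likelihood fit, strain and genotype as additive terms). P was adjusted by Benjamini-Hochberg over all 18017 of them with a threshold of 0.05. Normalized counts are counts scaled to a common effective library size. Values per strain came from a fit with 1 mean per group. DESeq2 1.42.0 and limma 3.58.1 were alternatives, as were other scalings, filters, depths, models and sets of libraries, with 27 in all. The fit was tested on simulated data. Replicates are separate mice, numbered in accession order.

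Named genes were the 12 in each direction with the smallest p among genes with a mean count of 50 or more whose groups did not overlap in either strain (unnamed gene models limited to 2), *En1*, *En2*, *Pax3*, *Smc2*, *Il2rg*, *Th* and *Xist*, of each list its members with the smallest p, DESeq2 calls among them, and the 4 DESeq2 calls with the smallest p in each direction, by which *Fam83g* was named. *Tie1*, *Cdk1*, *Plk1*, *Bub1b*, *Ephb6* and *Sema7a* were named after their values were seen. Genes, lists and this rule were chosen with earlier results of these data known. Some genes that this rule names are not reported here.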

Additional observations from a re-analysis of the deposited data

Results flagged for a closer look

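Single outlying mice were sought on the log2 scale in 106 groups of 6 mice (29 lists and 24 leading genes, in WT and in hemizygous mice). The gap of the highest or lowest mouse to its nearest neighbour was divided by the range of the group. Of these ratios 6 passed the critical value of 0.625, where chance alone passes about 1 in 20. The dopaminergic list had a ratio of 0.716 in WT mice, with C572S highest, and of 0.761 in hemizygous mice, with SW22 highest. The cholinergic list had 0.85 in hemizygous mice, with C572 highest. Among the leading genes, *Ppic* had 0.659 in WT mice, with SWG lowest, and *Grap* and *Car4* had 0.682 and 0.743 in WT mice, with SW7 highest in both. Each group pools both strains, so that a difference between strains is part of its range.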

How the results depend on the processing

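edgeR under every setting and limma voom called 0 genes, with 1313 to 2859 genes at an unadjusted p under 0.05, and the lowest adjusted p of a setting lay between 0.0790 and 0.644. DESeq2 called 153, or 393 without SW22 and C572S, 343 without C572 as well, and 43 to 598 with 1 mouse left out. The DESeq2 count was lowest without C5743 and highest without SW7. Non-overlapping genes numbered 386 higher and 579 lower without SW22 and C572S, 540 and 693 without C572 as well, and 108 to 293 higher and 218 to 380 lower with 1 mouse left out, since smaller groups overlap less often by construction. The thinned libraries gave 121 lower ones.

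The 24 leading genes kept their sign in all 648 recomputed values, which their choice by non-overlap in the same mice made likely in advance. Of the other named genes, 6 changed sign. *Tph2* was -0.37 with limma voom, -0.95 without SW22, C572S and C572, and -0.78 to 5.01 with 1 mouse left out. *Ptprc* was 0.065 without SW22 and C572S. *En2* was -0.41 with the GC covariate and -3.68 to 6.84 with 1 mouse left out, and *En1* ran from -6.75 to 2.16 and *Th* from -5.88 to 3.78 in the same way, while *Th* was -2.92 without SW22 and C572S and -2.93 without C572 as well. *Ly6c2* was 0.87 with limma voom, 0.092 and 0.15 without the 2 and the 3 doubtful mice, 0.17 with the GC covariate, and -0.30 to 0.80 with 1 mouse left out. The cause was not tested. Medians of 7 lists took the other sign under some setting, namely the dopaminergic, cholinergic, other leukocyte, ependymal, MHC class I, cytokine receptor and immediate early lists.

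No paired analysis was possible because the titles give the groups no shared replicate numbers and the numbers used here only name mice. The median approximate SE of a log2 fold change was 0.31, which limits what 6 against 6 mice can show.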
